A study of Oryctolagus cuniculus with 6 samples.

Results

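The complement genes C1QA, C1QB, C1R, C1S, C3, CFB, CFI, SERPING1 and CD55 were examined in retina of rabbits with proliferative vitreoretinopathy (PVR) and in normal rabbit retina. The 9 genes were chosen by name as components of the classical and alternative pathways and as regulators of complement. Earlier results of these data were known when they were chosen. Of the 9 genes, 8 had a row among the 28788 genes of the files, 6 by symbol and C1QA and C1QB through their RefSeq gene IDs. CFB was not matched to a row and was not analysed here. The normal group held 3 retina samples and the PVR group held 3. According to the study's methods, PVR was induced in adult rabbits by a puncture of the sclera, removal of some vitreous and injection of platelet-rich plasma, the platelet-dense fraction of blood, into the vitreous cavity. The strain, the time from injection to collection and any surgery on the normal eyes are not given in the sources used here, nor is it said whether the samples came from separate animals. The p-values therefore measure the spread between these samples, which may be partly technical.

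Polyadenylated RNA was sequenced, and between 31904593 and 43035080 reads per sample were counted in genes. The label retina was looked at through 8 photoreceptor markers. All 8 were tested and had negative log2 fold changes, with a median of -0.31, beside -0.01 over all genes tested. For 5 of the 8 the PVR samples lay entirely below the normal samples, as for 14.6% of all genes tested. By edgeR, DESeq2 or limma-voom 0 were called, which compares the groups and does not check the tissue. At an unadjusted p under 0.05 from edgeR, 4 were lower in PVR, beside 9.94% of all genes tested. One of the 8 markers, the rod gene GNAT1, had 2680 to 3011 CPM in normal and 1933 to 2597 CPM in PVR retina. Normal replicate 2 stood apart in lens genes, with 32725 CPM summed over 8 lens markers against 12.2 and 15.6 CPM in the other normal samples and between 262 and 300 CPM in PVR. Counts were scaled to a library total of fixed size (CPM) with TMM factors, which correct for differences in RNA composition, and groups were compared with edgeR's quasi-likelihood test over 18697 genes. A gene was called when its adjusted p was under 0.05 and its log2 fold change was beyond 1 in either direction.

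Complement is a cascade of plasma and tissue proteins that tags and lyses targets. In the classical pathway, the recognition molecule C1q, built from the chains of C1QA, C1QB and C1QC, activates the proteases C1r and C1s, which cleave C4 and C2 to form an enzyme that cleaves C3. The alternative pathway uses factor B to amplify the cleavage of C3, and the terminal components C5 to C9 then form the membrane attack complex. Regulators act at each step: C1 inhibitor (SERPING1) on C1r and C1s, CD55 on the C3-cleaving enzymes, factor I (CFI) on C3b and C4b, and CD59 on the membrane attack complex. In the retina, microglia are a known source of C1q, and complement is known for its part in synapse removal and in the response to injury.

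Among the 8 complement genes measured, SERPING1 rose in PVR, to 6.57 times its normal mean CPM. The other 7 did not pass the test. Thus edgeR called 1 of 8 higher and 0 lower, whereas 0.69% of all 18697 genes tested were called higher and 0.316% lower. DESeq2 called 2 higher and limma-voom 1, and both called 0 lower. Over all 18697 genes, DESeq2 called 524 higher and 212 lower, and limma-voom 92 higher and 37 lower. At an adjusted p under 0.05 at any fold, edgeR again gave 1 higher and 0 lower, against 1.09% and 0.615% of all genes tested. At an unadjusted p under 0.05, 2 of the 8 genes were higher, SERPING1 and C1R, and 0 were lower, against 11.3% and 9.94% of all genes tested. The PVR samples lay entirely above the normal samples for these 2 genes as well, which was the case for 13.4% of all genes tested. None of the 8 lay entirely below, as 14.6% of all genes tested did. All 8 passed the filter on low counts, and 7 of 8 log2 fold changes were positive, against 48.9% over all genes tested. They ran from -0.21 to 2.72 with a median of 0.59, beside a median of -0.01 over all genes tested. In bulk tissue, a change in the number of cells and a change in RNA per cell cannot be told apart.

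**Figure D1:**
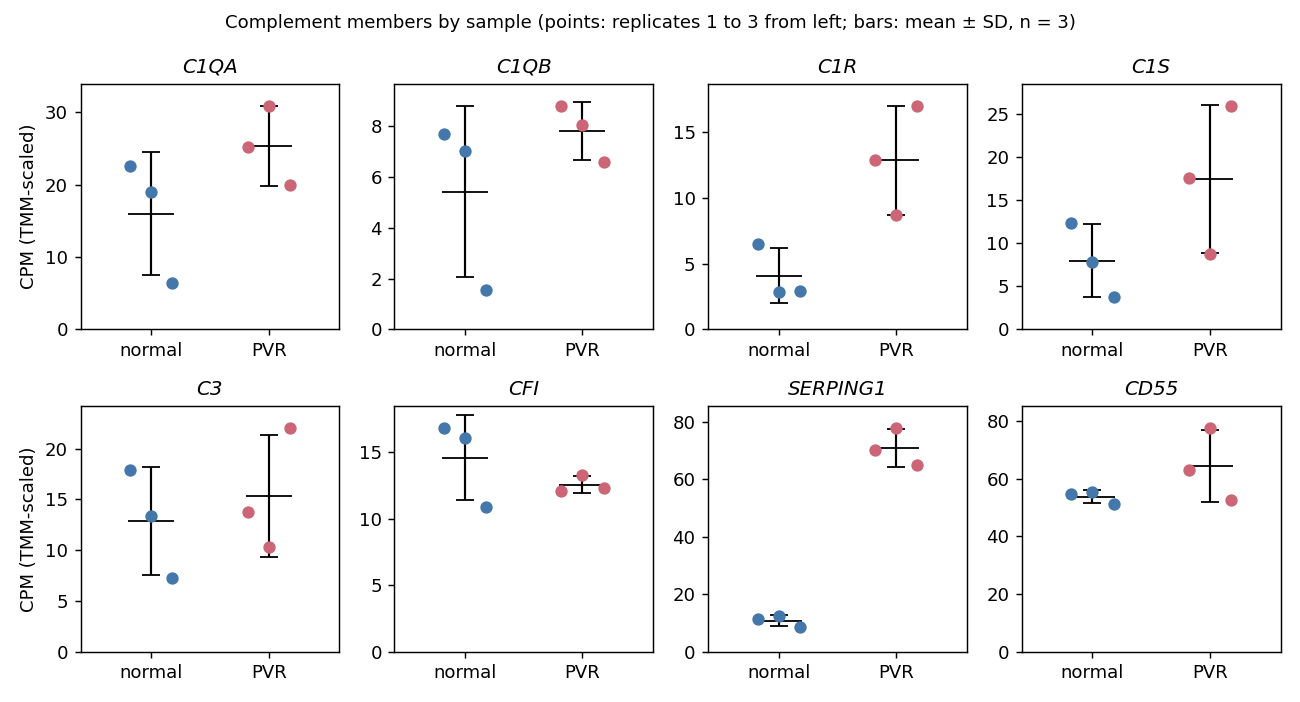
CPM (y axes, linear and starting at 0) of the 8 measured complement genes in the 3 normal and 3 PVR samples, with the mean and SD of each group. SERPING1 lies between 8.66 and 12.3 CPM in normal samples and between 64.8 and 77.7 CPM in PVR samples, C1R does not overlap either, and the groups of the other 6 genes overlap.

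The recognition chains C1QA and C1QB were measured at 258 to 1038 and 62 to 293 counts per sample. C1QA stood at 22.6, 19.0 and 6.45 CPM in normal replicates 1, 2 and 3 and at 25.2, 30.9 and 19.9 CPM in PVR replicates 1, 2 and 3. The third normal sample was the lowest by far. Normal replicate 1 reached into the PVR range, and normal replicate 2 lay just below it. C1QB followed the same order among the normal samples, with 7.70, 7.05 and 1.55 CPM, and had 8.81, 8.07 and 6.59 CPM in PVR. The log2 fold change was 0.66 for C1QA (standard error, SE, 0.42, edgeR adjusted p = 0.394) and 0.53 for C1QB (SE 0.52, edgeR adjusted p = 0.582). Both differences were smaller than the spread between normal samples, and without normal replicate 3 they were 0.29 and 0.09. In RefSeq's assembly mOryCun1.1, C1QC is the single protein-coding gene between C1QA and C1QB, but C1QC itself was not matched to a row.

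Microglia and macrophages are cells known to make C1q, and the summed level of their markers was lowest in the same normal sample as the C1q chains. Summed over 16 such markers, all of them tested, the level was 83.9, 89.2 and 56.9 CPM in normal replicates 1, 2 and 3 and between 114 and 131 CPM in PVR. By the single markers, 15 of 16 had a positive log2 fold change, with a median of 0.96. None of the 16 was called by edgeR or by limma-voom, and 3 were called higher by DESeq2. At an unadjusted p under 0.05 from edgeR, 9 were higher, beside 11.3% of all genes tested. Among the normal samples, 12 of 16 markers were lowest in replicate 3, and TMEM119, CD14, CD163 and MRC1 were not. Replicate 3 was also the lowest normal sample for the summed pigment epithelium, neutrophil, lymphocyte, endothelial and pericyte, erythrocyte and platelet, and lens markers. It was not the lowest for the summed photoreceptor, Mueller glia, plasma protein or fibroblast markers. Of the 16 microglia and macrophage markers, the defining AIF1, CX3CR1, P2RY12 and TMEM119 were detected in every sample. The part of microglia and macrophages in the C1QA and C1QB values was not tested.

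Per gene length, the ratio of C1QA to C1QB had nearly the same mean in both groups. It was 1.84 ± 0.442 (SD, n = 3) in normal retina and 1.83 ± 0.293 (SD, n = 3) in the PVR samples, as FPKM ratios within a sample. The log2 ratios differed by 0.00 on average (two-sided exact permutation test, p = 1, where 3 samples against 3 cannot give a p under 0.1).

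**Figure D2:**
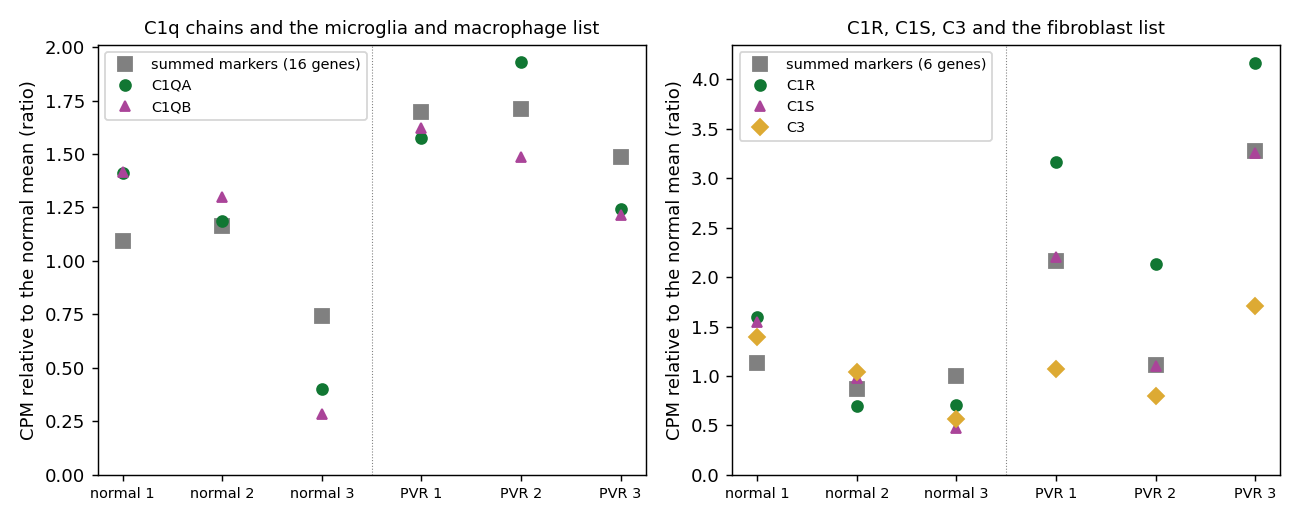
CPM of C1QA and C1QB beside the summed CPM of 16 microglia and macrophage markers (left), and of C1R, C1S and C3 beside the summed CPM of 6 fibroblast markers (right), for each of the 6 samples and divided by the mean of the normal samples (y axes, ratio). Normal replicate 3 is the lowest sample for both C1q chains and the summed marker list, and PVR replicate 2 is the lowest PVR sample for C1R, C1S, C3 and the summed fibroblast list.

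The proteases C1R and C1S are encoded by neighbouring genes with no other protein-coding gene between them in mOryCun1.1. C1R, whose product cleaves and activates C1s, had 6.51, 2.85 and 2.88 CPM in normal retina and 12.9, 8.69 and 17.0 CPM in the PVR samples. All PVR samples were above all normal samples, and PVR replicate 2 and normal replicate 1 came closest to each other. C1R had a log2 fold change of 1.66 (SE 0.40, edgeR adjusted p = 0.0856) and was not called. With DESeq2, the tool named in the study's methods, the adjusted p of C1R was 0.000344 and the gene was called. Over the 14 other alternatives it was not called, and the adjusted p was between 0.0622 and 0.291 over the edgeR tests that left out a sample.

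C1S, the protease that cleaves C4 and C2, had 12.3, 7.79 and 3.78 CPM in normal retina and 17.5, 8.75 and 25.9 CPM in the PVR samples. PVR replicate 2 lay below normal replicate 1, so the groups overlapped. On the log2 scale the change of C1S was 1.13 (SE 0.50, edgeR adjusted p = 0.245), and without PVR replicate 3 it was 0.72. The FPKM ratio of C1R to C1S was 0.643 ± 0.231 (SD, n = 3) in normal and 0.926 ± 0.205 (SD, n = 3) in PVR samples, with overlapping groups (two-sided exact permutation test of the log2 ratio, p = 0.3).

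Among PVR samples, the order was the same for both proteases and for the summed level of 6 fibroblast markers, with replicate 3 highest and replicate 2 lowest. By the single markers, 4 of 6 stood in this order, the collagen genes COL1A1, COL1A2 and COL3A1 and also DCN, whereas LUM and PDGFRA stood in the reverse order, with replicate 2 highest and replicate 3 lowest. The summed markers reached 204, 105 and 309 CPM in PVR replicates 1, 2 and 3, against 107, 81.6 and 94.5 CPM in normal retina. COL1A1 had 1817, 190 and 4485 counts in the PVR samples and 224 to 532 counts in normal retina. No marker of the list was called by edgeR, DESeq2 or limma-voom. At an unadjusted p under 0.05 from edgeR, 3 of 6 markers were higher, beside 11.3% of all genes tested. Their part in the C1R and C1S values was not tested.

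C3, the central component on which both pathways converge, did not pass the test. It had 17.9, 13.4 and 7.26 CPM in normal retina and 13.8, 10.3 and 22.0 CPM in the PVR samples. The lowest value was a normal sample and the highest a PVR sample, while the remaining 4 were interleaved. C3 differed on the log2 scale by 0.26 (SE 0.38, edgeR adjusted p = 0.721). With normal replicate 3 left out it was -0.02, and with PVR replicate 3 left out -0.10, so no direction can be given. PVR replicate 3 was the highest sample for C3 as well as for C1R, C1S and the summed fibroblast markers.

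SERPING1 encodes C1 inhibitor, a serine protease inhibitor that inactivates C1r and C1s and also plasma kallikrein. It was counted 435, 477 and 346 times in normal retina and 2293, 2610 and 2812 times in the PVR samples. In CPM this was 11.4, 12.3 and 8.66 in normal and 70.1, 77.7 and 64.8 in PVR. The lowest PVR sample was thus several times above the highest normal sample, and the spread within each group was small beside the difference. The mean was 10.8 ± 1.89 CPM (SD, n = 3) in normal and 70.9 ± 6.49 CPM (SD, n = 3) in PVR samples. The log2 fold change of SERPING1 was 2.72 (SE 0.15, edgeR adjusted p = 0.000605), and the gene stood at position 7 of 18697 when ranked by p. It was called in all 15 alternatives, with log2 fold changes from 2.59 to 2.82 when single samples were left out and a highest adjusted p of 0.00922. Without normal replicate 2, the sample with lens RNA, the log2 fold change was 2.82 (edgeR adjusted p = 0.00192).

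The liver is the main source of plasma C1 inhibitor, and 9 genes of plasma proteins made there were also examined. Their RNA does not measure plasma protein in the eye, and the source of SERPING1 RNA was not tested. The fibrinogen genes FGA and FGG were at 0 counts in every sample, and ALB, the gene of albumin, had at most 4 counts. TF, HP and APOB were the 3 that could be tested, and none was called by edgeR, DESeq2 or limma-voom or had an unadjusted p under 0.05 from edgeR. The summed level of the list, nearly all from TF, ranged from 1940 to 2373 CPM in normal and from 2126 to 2585 CPM in PVR samples.

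The gene most like SERPING1 across the 6 samples was EDNRB, the endothelin receptor type B. Likeness was the root mean square difference of log2 CPM, centred on the normal mean, over 9515 candidate genes with a symbol and a mean log2 CPM of at least 3. For EDNRB it was 0.154. EDNRB had 23.1, 29.2 and 25.1 CPM in normal retina and 170, 196 and 157 CPM in the PVR samples, so replicate 2 was the highest of its group for both genes.

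CD55, or decay-accelerating factor, is a membrane protein that dissociates the C3-cleaving enzymes. It had 54.6, 55.5 and 51.2 CPM in normal retina and 62.8, 77.4 and 52.7 CPM in the PVR samples. PVR replicate 3 lay within the normal range, whereas the other PVR samples were above it. For CD55 the log2 fold change was 0.26 (SE 0.14, edgeR adjusted p = 0.315). CFI, or factor I, is the protease that cuts C3b and C4b in the presence of cofactors. CFI had 16.8, 16.1 and 10.9 CPM in normal and 12.1, 13.3 and 12.3 CPM in PVR samples. The PVR samples lay within the range of the normal samples. Its log2 fold change was -0.21 (SE 0.19, edgeR adjusted p = 0.541).

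Levels of different genes can be compared per gene length, as FPKM (counts scaled to gene length and to the total count of the sample). In the normal samples the 8 genes had mean FPKM between 1.44 and 7.91, in the order C1QA, CD55, SERPING1, CFI, C3, C1QB, C1S and C1R. Of the 7 pairs of neighbours in this order, CD55 and SERPING1 alone had ranges that did not overlap. In the PVR samples SERPING1 was first, with an FPKM of 39.1 ± 4.14 (SD, n = 3). C1QA followed at 13.2 ± 3.05 (SD, n = 3), and SERPING1 lay above it in all samples. CD55, C1QB, C3, C1S, CFI and C1R came next, with mean FPKM between 4.76 and 8.76, and each overlapped its neighbour. The FPKM of C3 rests on a length of 2603 bases in the deposited tables, which is shorter than the 2760 bases used for C1R although C3 is a far larger protein. If C3 reads came from a longer transcript than that, the FPKM of C3, its place in the order and its ratios to other genes are overstated, by 1 factor that is the same in every sample and leaves differences between the groups as they are.

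**Figure D3:**
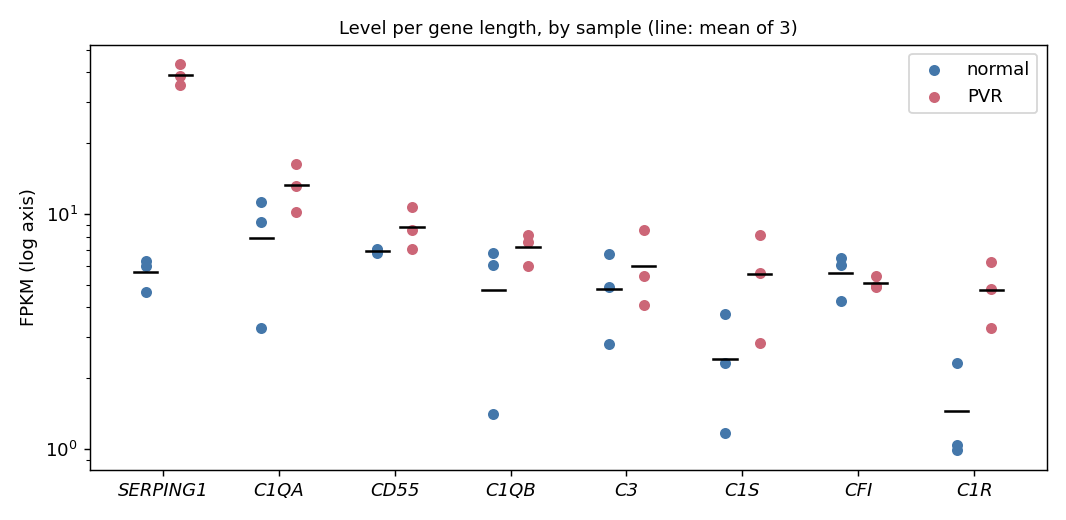
FPKM (y axis, logarithmic) of the 8 complement genes in each normal and PVR sample, ordered by the PVR mean, with a line at the mean of 3. SERPING1 moves from a normal mean of 5.65, within the range of the other genes, to a PVR mean of 39.1, above all others.

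C3 was also set against 3 regulators within each sample, as a ratio of FPKM values. The ratio of C3 to SERPING1 was 1.12, 0.778 and 0.598 in normal retina and 0.140, 0.0943 and 0.242 in the PVR samples. All PVR samples were lower, and the mean log2 ratio differed by -2.45 (two-sided exact permutation test, p = 0.1, the smallest p possible, and 0.3 after adjustment over the 6 ratios computed). The ratios of C3 to CFI and to CD55 overlapped between the groups, with differences in the mean log2 ratio of 0.47 and 0.04.

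**Figure D4:**
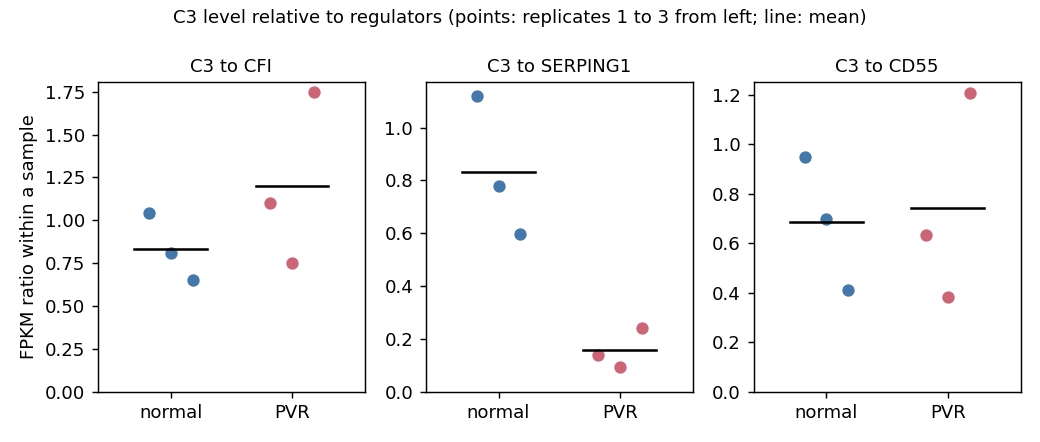
FPKM ratio of C3 to CFI, SERPING1 and CD55 within each sample (y axes, linear and starting at 0), with a line at the mean of 3. The ratio to SERPING1 is at most 0.242 in PVR and at least 0.598 in normal samples, and the ratios to CFI and CD55 overlap between the groups.

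A further 42 complement genes on 4 lists were looked up, of which 33 had a row and 24 passed the filter on low counts. The lists were drawn up with earlier results of these data known, so their shares are descriptions and not tests. Among the 24 genes, CD59 and CLU were called higher and none was called lower, by edgeR, beside 0.69% and 0.316% of all genes tested. At an unadjusted p under 0.05, 12 were higher and 2 lower, beside 11.3% and 9.94% of all genes tested. The groups did not overlap for 13 with PVR above and for 3 with PVR below, beside 13.4% and 14.6% of all genes tested. The median log2 fold change was 0.70, beside -0.01 over all genes tested. DESeq2 called 7 higher and 1 lower, and limma-voom called 3 higher. Over all 18697 genes tested, DESeq2 called 524 higher and 212 lower, and limma-voom called 92 higher and 37 lower.

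**Figure D5:**
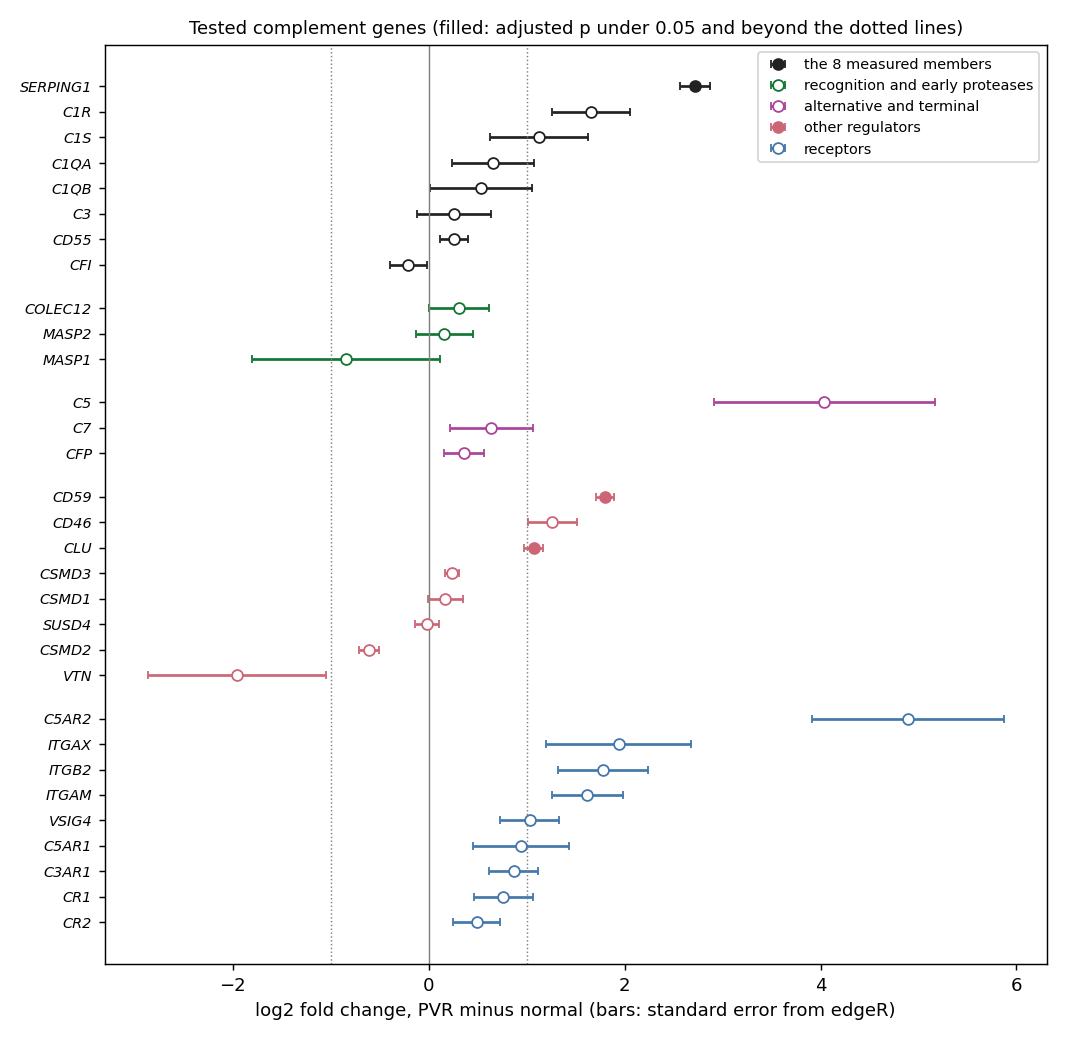
Log2 fold change of PVR minus normal (x axis) with its standard error for the 8 measured members and 23 other tested complement genes, grouped by role. Filled points, those past both thresholds, are SERPING1 at 2.72, CD59 at 1.80 and CLU at 1.07, and all 9 receptors lie to the right of 0.

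Of the regulators, 10 of 12 had a row and 9 were tested, 5 with positive and 4 with negative log2 fold changes and a median of 0.17. CD59, the membrane inhibitor of the attack complex, had 56.1, 57.8 and 67.5 CPM in normal retina and 214, 204 and 212 CPM in PVR retina. The log2 fold change was 1.80 (SE 0.09, edgeR adjusted p = 0.000334), and CD59 was called in all 15 alternatives. CLU, or clusterin, a secreted chaperone that also inhibits the terminal pathway, had 733, 800 and 805 CPM in normal and 1686, 1766 and 1456 CPM in PVR samples. Both genes had groups far apart. For CLU the log2 fold change was 1.07 (SE 0.10, edgeR adjusted p = 0.00733), and without PVR replicate 1 the adjusted p was 0.0949. CLU is also a gene of Mueller glia, and the 7 other markers of these cells summed to 2342, 3082 and 2919 CPM in normal and 2429, 2252 and 2455 CPM in PVR samples. The groups overlapped, with 3 positive and 4 negative log2 fold changes and a median of -0.03. Of these 7 markers GLUL was called lower and none was called higher by edgeR or DESeq2. At an unadjusted p under 0.05 from edgeR, GFAP was higher and GLUL and RLBP1 were lower, beside 11.3% and 9.94% of all genes tested. RLBP1 had a log2 fold change of -0.89 (SE 0.13, edgeR adjusted p = 0.0294), which is not beyond the threshold on fold. The part of these cells in the CLU value was not tested.

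CD46, a membrane cofactor for factor I, had 1.76, 1.72 and 1.63 CPM in normal and 3.39, 5 and 3.89 CPM in PVR samples. The groups did not overlap, and the log2 fold change was 1.26 (SE 0.25, edgeR adjusted p = 0.0587, and 0.00145 with DESeq2). CSMD2, a large membrane protein with complement-control domains, differed by -0.61 on the log2 scale (SE 0.10, edgeR adjusted p = 0.0415), which is not beyond the threshold on fold. VTN, the gene of vitronectin, which binds the forming attack complex, had at most 27 counts and a log2 fold change of -1.96 (SE 0.91, edgeR adjusted p = 0.267). A further 3 regulators, CSMD1, CSMD3 and SUSD4, differed by 0.17, 0.24 and -0.02, with adjusted p of at least 0.136 from edgeR, and SUSD4 turned to 0.01 with upper-quartile factors.

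Receptors of complement fragments had positive log2 fold changes for 9 of 9 genes, with a median of 1.03, but none was called by edgeR. At an unadjusted p under 0.05, 7 of the 9 were higher, beside 11.3% of all genes tested. ITGAM and ITGB2, which form complement receptor CR3 on myeloid cells, had log2 fold changes of 1.62 (SE 0.36, edgeR adjusted p = 0.0735) and 1.78 (SE 0.46, edgeR adjusted p = 0.0995). ITGAM stood at 2.78, 3.47 and 1.63 CPM in normal and at 7.49, 11.2 and 5.69 CPM in PVR samples. DESeq2 called ITGAM, ITGB2 and VSIG4, a macrophage receptor for C3 fragments, and edgeR called ITGAM when PVR replicate 3 was left out (adjusted p = 0.0495). C3AR1, the receptor of C3a, had a log2 fold change of 0.87 and C5AR1, the receptor of C5a, one of 0.94 (adjusted p = 0.122 and 0.307 from edgeR). The other receptors tested, CR1, CR2, ITGAX and VSIG4, differed by 0.76, 0.49, 1.94 and 1.03 on the log2 scale (edgeR adjusted p = 0.207, 0.284, 0.195 and 0.126). C5AR2, the second C5a receptor, had 0, 1 and 0 counts in normal retina and 12, 12 and 14 counts in the PVR samples. All PVR samples were above all normal samples. From 38 counts against 1, the ratio of PVR to normal was 40.5, with an exact 95% interval from 6.84 to 1641 that covers counting error only, and the adjusted p was 0.0612 from edgeR. limma-voom called C5AR2, with an adjusted p of 0.0425.

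CR3 and the C5a receptors are found on neutrophils as well as on microglia. The neutrophil list had 6 genes with a row, which summed to 0.826 to 2.24 CPM in normal and 8.64 to 19.0 CPM in PVR samples. Of the 4 that were tested, S100A8, S100A9 and S100A12 were called higher by edgeR and DESeq2. Over all genes tested, edgeR called 0.69% higher and DESeq2 524 of 18697. These 3 were not called by limma-voom, with adjusted p of 0.0624, 0.0831 and 0.0601. CXCR2 had 11 to 27 counts with overlapping groups, CSF3R had at most 6 counts, and the defining marker MPO was at 0 counts in every sample. The part of these cells in the receptor values was not tested.

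The remaining complement genes were low or did not pass the test. Of the recognition molecules and early proteases, 7 of 12 had a row and 3 were tested: COLEC12, MASP1 and MASP2, with log2 fold changes of 0.31, -0.84 and 0.16 and adjusted p of 0.595, 0.637 and 0.769 from edgeR. C2, the partner of C4 in the classical pathway, had between 0 and 19 counts per sample, and MBL2 was at 0 in all of them. Among the components of the alternative and terminal pathways, 7 of 9 had a row, 3 were tested and none was called by edgeR. Properdin (CFP), the stabiliser of the alternative pathway enzyme, differed by 0.36 on the log2 scale (SE 0.20, edgeR adjusted p = 0.334). C5, the first terminal component, had 0, 9 and 2 counts in normal and 33, 112 and 20 counts in PVR samples. Its groups did not overlap, and the fitted log2 fold change was 4.04 (SE 1.13, edgeR adjusted p = 0.114, and 0.00339 with DESeq2), which varied between 2.92 and 5.80 when single samples were left out. C7 was detected at 57 to 156 counts without a call, and C8A, C8B and C9 had at most 2 counts in any sample. C6 had 11, 4 and 1 counts in normal and 0 in every PVR sample, and was too low to be tested.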

How the data were processed

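Raw counts per gene were deposited by the authors without normalization. Per the study's methods, HISAT2 placed the reads of 3 normal and 3 PVR retina samples on OryCun2.0, and htseq-count gave counts. The submitters' processing notes also name fastp. The annotation release and strand setting are not given in the sources used here. The authors also deposited FPKM values, which equal the counts divided by gene length and total count. The lengths implied for a gene differed between samples by at most 4.24e-09 (relative). Rows naming no gene were absent.

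The test used edgeR 4.0.16 in R 4.3.3. Its default filter kept 18697 of 28788 genes, TMM factors were computed, and a quasi-likelihood model with the group as its single term was fitted, with Benjamini-Hochberg adjustment over all genes tested. A log2 fold change is PVR minus normal, and its standard error is the absolute value over the root of F. FPKM ratios were compared with two-sided exact permutation tests in SciPy 1.17.1. Samples of one group differed by more than counting noise (chi-square from 20.8 to 196 per degree of freedom), so each was counted as 1 replicate. Same-numbered normal and PVR samples did not deviate together and were not paired.

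The genes and lists (4 of complement, 11 of cell type markers) were chosen with earlier results of these data known. Their shares beside those of all genes tested are therefore descriptions and not tests. Genes named are those of the lists and, for a member past both thresholds, the gene with the most alike pattern. Names of numbered rows were taken from RefSeq's table of mOryCun1.1, a different build from OryCun2.0, without its coordinates. Alternatives were DESeq2 1.42.0, limma-voom and limma 3.58.1 on log2(FPKM + 1) and log2(FPKM + 0.1), RLE and upper-quartile factors, no filter, at least 10 counts in every sample, a fit with the replicate block, and leaving out every sample in turn. The tests were checked on simulated counts by the adjusted p alone, without the threshold on fold or a check of direction. With edgeR, 159 genes had an adjusted p under 0.05 there and 11 of these were false, beside 33 of 197 with DESeq2 and 8 of 145 with limma-voom. At a set log2 fold of 1, edgeR recovered 54 of 100 genes, DESeq2 66 and limma-voom 44. At a set log2 fold of 2, they recovered 94, 98 and 93 of 100. Python 3.11.15, with pandas 2.3.3 for tables and matplotlib 3.10.9 for plots, did the rest. The study's human dataset, qRT-PCR and western blot were not analysed here. The values of 1 further regulator and 1 photoreceptor marker, counted in the lists, are not reported here.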

Additional observations from a re-analysis of the deposited data

How the results depend on the processing

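The number of measured complement members called was 1 in the edgeR test and in 14 of 15 alternatives, and 2 with DESeq2. Of the other complement genes 2 were called, 8 with DESeq2 and between 1 and 3 with single samples left out. At an adjusted p under 0.05 at any fold, 1 member and 3 other genes passed. Over all genes 188 were called, 736 with DESeq2, 87 on log2(FPKM + 1), 82 with the replicate block, and from 22 (without PVR replicate 1) to 436 (without PVR replicate 3) with single samples left out. Among the marker genes 10 were called, and 0 to 11 with single samples left out, with 0 without PVR replicate 1. Of the 32 complement genes with a fitted fold change, 20 kept their direction and side of the thresholds in every alternative. Of 473 alternative values, 8 reversed: C3 (-0.10 to 0.58 with single samples left out), MASP2 (-0.06 to 0.37), and SUSD4 (0.01 with upper-quartile factors, 0.05 on both FPKM scales, and -0.10 to 0.09 with single samples left out). A further 10 values newly passed the thresholds, mostly with DESeq2, and 1 lost them. The mean log2 FPKM ratio differed by -0.13 to 0.19 for C1QA to C1QB and by -0.39 to 0.43 for C3 to CD55 with single samples left out, and so had no fixed direction. The other 4 ratios kept theirs. The cause of these changes was not tested, beyond the smaller number of samples where one was left out.

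Replicate numbers are shared by the groups, but deviations of same-numbered samples correlated at -0.01, 0.07 and 0.04, and not every sample correlated best with its own number, so the numbers were not taken as a pairing. The replicate block left the calls at 1 member and 2 other complement genes. Genes with few counts, such as C5AR2, C5, C2 and C6, are limited by depth.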

Other observations

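Vessel markers were not uniform in these retinas. VWF, CDH5 and RGS5, known in endothelium and pericytes, were called lower in PVR by edgeR, 3 of 8 markers beside 0.316% of all genes tested. With limma-voom CDH5 was called (adjusted p = 0.0493), but VWF and RGS5 were not (0.116 and 0.186). VWF had 228, 620 and 950 counts in normal and 14, 13 and 25 counts in PVR retina. The summed level of all 8 vessel markers was nonetheless 640 to 681 CPM in normal and 712 to 738 CPM in PVR retina, and most of it came from KDR and FLT1. The 8 pigment epithelium markers summed to 289 to 547 CPM in normal and 164 to 195 CPM in PVR retina. Of these, 6 were tested, and LRAT and TTR were called lower by edgeR, beside 0.316% of all genes tested. They were not called by limma-voom, with adjusted p of 0.131 and 0.0759. The 6 erythrocyte and platelet markers with a row summed to 27.1 to 28.7 CPM in normal and 14.3 to 18.9 CPM in PVR retina. Most of this came from HBA, with 17.9 to 21.1 CPM in normal and 6.82 to 11.9 CPM in PVR retina. The platelet markers went both ways. PPBP and GP9 had log2 fold changes of 1.80 and 0.79, and ITGA2B and GP1BB of -0.53 and -0.08 (edgeR adjusted p of at least 0.3). The 7 lymphocyte markers with a row summed to 0.125 to 1.95 CPM in normal and 0.345 to 4.70 CPM in PVR retina. In none of these lists was a marker called higher by edgeR. At an unadjusted p under 0.05 there was 1 higher marker among those of vessels, 1 among those of pigment epithelium and 0 in the other lists. Over all genes tested, this share was 11.3%. Lower at an unadjusted p under 0.05 from edgeR were 4 vessel, 4 pigment epithelium and 1 of the erythrocyte and platelet markers. No lymphocyte marker was, beside 9.94% of all genes tested.

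The files also hold 12 rows named C1QL or C1QTNF, for secreted proteins that share the C1q domain but are not part of the complement cascade. They were looked up after the counts had been seen, so their values are given without a test. In 8 of them a group mean reached 1 CPM. C1QL1, a synaptic organiser in the brain, had 34.7, 37.7 and 27.8 CPM in normal retina and 64.5, 50 and 67.9 CPM in the PVR samples. It was the 1 gene of the 8 whose groups did not overlap. Over all genes tested, PVR lay entirely above normal for 13.4% and entirely below for 14.6%. C1QTNF5, a gene of the pigment epithelium, had 12.5, 14.5 and 5.38 CPM in normal and 4.92, 3.57 and 7.72 CPM in PVR samples.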
